A study of Homo sapiens with 2 samples.

Results

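Integrins are the transmembrane receptors by which cells hold on to the extracellular matrix, and focal adhesions are the protein plaques that couple them to the actin cytoskeleton. Where these genes carried histone H3 lactylated at lysine 18 (H3K18la) was read from a list of broad ChIP-seq peaks in H1299, a line from a human lung carcinoma of the non-small cell type. The 46 genes described here comprise 18 integrin alpha subunits, 8 beta subunits and 20 cytoplasmic adhesion genes, out of 19866 protein-coding genes of RefSeq on GRCh38. They were chosen by name, with the peaks of the same list already known, and their peaks are therefore given as a description. For each gene, peaks were counted within 1000 bp of either gene end, in the gene body and within 50000 bp of the gene.

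The series holds 2 libraries of H1299 chromatin, with no treatment named in the labels, 1 immunoprecipitated with anti-H3K18la and 1 of input DNA without antibody. The peak list of the immunoprecipitated library, with 28695 peaks, was the only file analysed. With 1 library a group and 1 cell line there are no replicates, no test is given, and intervals are exact binomial intervals (95%) that cover counting error only. The series' design text names IgG where the sample labels name input, and the sources used here do not say which served as control when peaks were called. Sequencing depth is not known, and absence from the list does not show that a gene lacks the mark. In a bulk library, fewer cells with the mark and less of it per cell cannot be told apart. Epithelial and lung genes were partly marked: KRT8 and KRT18 shared an end peak of 6.09-fold, KRT7 had 6.97-fold and the mesenchymal gene VIM had 8.09-fold. The annotated start of KRT8 lies inside its span, and a separate peak of 8.34-fold covered it. EPCAM and the surfactant gene SFTPB had none in the gene, and the lung factor gene NKX2-1 had 3.90-fold. The leukocyte genes PTPRC, CD3E, CD14 and LYZ and the endothelial genes PECAM1 and CDH5 were without an end peak. Inside the gene, PTPRC had 3.60-fold, PECAM1 7.30-fold and CDH5 9.54-fold.

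Integrins work as pairs of an alpha and a beta subunit, which together decide the ligand: collagens, laminins, or proteins with an Arg-Gly-Asp (RGD) motif such as fibronectin and vitronectin. Talins and kindlins bind the beta tail and switch the receptor on, and paxillin, focal adhesion kinase, SRC and p130Cas carry the signal. Vinculin, alpha-actinins, filamins, tensins and zyxin tie the plaque to actin. Lactylation is a lysine modification made from lactate, and H3K18la is known as a mark of active promoters and enhancers.

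Of the 46 genes, 34 had a peak at 1 end or both (73.9%, interval 58.9 to 85.7), against a background of 59.1% of all protein-coding genes. The background lies just inside the interval. With at least 50% of a peak required in the window, the shares were 54.3% (25 of 46) and 53.9%. Adhesion genes are long, with a median of 76013.5 bp against 24469 bp for all genes. Among genes of 50000 bp or more, the share was 65.5% (19 of 29) for the adhesion genes and 64.0% for all, so that the shares were close among long genes. The larger difference over the whole list therefore lay among the shorter genes, which were not counted apart. Over all protein-coding genes the share was 64.0% in long genes and 59.1% at any length. What part gene length has in the difference was not tested. A peak overlapped the body of 42 of 46 adhesion genes (91.3%) and of 65.0% of all genes, and above 50000 bp of 86.2% (25 of 29) and 77.9%. Within 50000 bp, 44 of 46 genes had a peak (95.7%), against 83.1% of all genes.

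The strongest gene-end peak of each of the 34 genes had a median fold enrichment of 6.62 (quartiles 4.60 and 8.21). The genes of the whole list had a median of 5.66 (4.42 and 7.19). This lies inside the binomial interval of the median of the 34 genes, 5.06 to 7.80. Fold enrichment here is the deposited ratio of the peak to the caller's local background, averaged over the length of the peak. The widest end peak of each gene had a median of 1755.5 bp (quartiles 1218.25 and 3784.25). The median for all genes was 1440 bp (1004 and 2026), again inside the binomial interval, 1316 to 2847 bp. A width of 5000 bp or more was reached by 4 of the 46 genes (8.70%, interval 2.42 to 20.8), namely ITGA3, ACTN4, ITGB1 and FLNC, and by 1.52% of all genes. The width of the ITGA3 peak was part of how these genes were chosen, so this share and its interval are no evidence of wider peaks. Above 50000 bp of gene length, such a width was reached by 2 of 29 genes (6.90%, interval 0.846 to 22.8) against 1.44%.

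**Figure D1:**
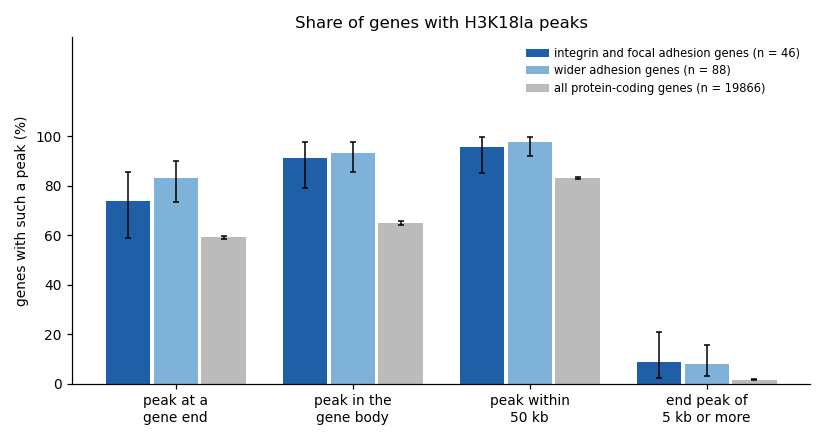
Share of genes (%) with each kind of peak, for the 46 integrin and focal adhesion genes, 88 other adhesion genes and all 19866 protein-coding genes. Bars are shares and error bars exact binomial intervals. The bars of the 46 genes stand at 73.9%, 91.3%, 95.7% and 8.70%.

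A gene end carried a peak in 18 of 20 cytoplasmic genes (90.0%, interval 68.3 to 98.8) and in 16 of 26 integrins (61.5%, 40.6 to 79.8), against 59.1% of all protein-coding genes. The integrin share was thus about the background. The intervals of both classes overlap, and the difference was not tested. Among the integrins, 10 of 18 alpha subunits and 6 of 8 beta subunits had an end peak. Another 7 integrins had peaks inside the gene only, and ITGA8, ITGA9 and ITGB6 had none in the gene. Of the cytoplasmic genes, PARVB had a peak only inside its span and TNS1 had none.

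**Figure D2:**
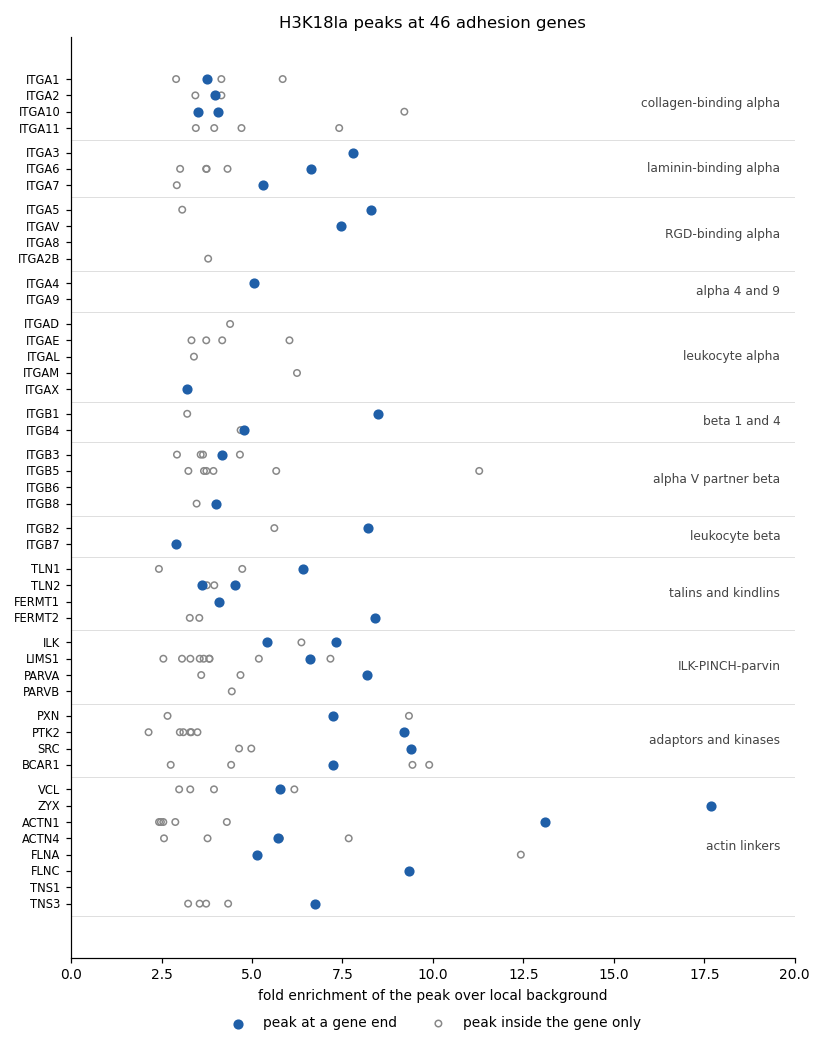
Fold enrichment over local background of every peak at or in each of the 46 genes, by class of protein. Filled points are peaks within 1000 bp of a gene end and open points are peaks elsewhere in the gene. ZYX (17.7-fold) and ACTN1 (13.1-fold) stand farthest right, and the rows of ITGA8, ITGA9, ITGB6 and TNS1 are empty.

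The promoter table of RefSeq (GRCh38.p14) gives the start and strand of 33 of the 46 genes. A peak lay within 1000 bp of this start in 25 of them (75.8%, interval 57.7 to 88.9), against 60.2% of all 15843 coding genes of the table. All 24 oriented adhesion genes with an end peak had a peak at the start, as had 95.5% of all oriented coding genes with an end peak (9239 of 9678). TLN2 and ILK had another at the 3′ end, 2 of 46 genes against 5.96% of all genes with a peak at both ends. The remaining gene of the 25, PARVB, starts inside its annotated span, and its only peak (4.44-fold, 1030 bp) covered that start. ITGA3, ITGA7, ITGA9, ITGAD, ITGAL, ITGAX, ITGB2, ITGB3, ITGB4, FERMT1, PARVA, PTK2 and SRC have no entry and are described by their ends of lower and higher coordinate.

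Promoters of 300 bases, from 250 before to 50 after the start, are shown for 5 genes, picked as examples of more and fewer CpGs with and without a peak. Capitals mark each CpG. ZYX (chr7:143381095-143381394, plus strand) has the strongest end peak of the 46 genes and ITGB1 (chr10:32958181-32958480, minus strand) the widest of the oriented integrins. BCAR1 (chr16:75267958-75268257, minus strand) has few CpGs and a peak. ITGA8 (chr10:15719873-15720172, minus strand) has many and none, and ITGB6 (chr2:160200223-160200522, minus strand) has no CpG and no peak at the start.
ZYX: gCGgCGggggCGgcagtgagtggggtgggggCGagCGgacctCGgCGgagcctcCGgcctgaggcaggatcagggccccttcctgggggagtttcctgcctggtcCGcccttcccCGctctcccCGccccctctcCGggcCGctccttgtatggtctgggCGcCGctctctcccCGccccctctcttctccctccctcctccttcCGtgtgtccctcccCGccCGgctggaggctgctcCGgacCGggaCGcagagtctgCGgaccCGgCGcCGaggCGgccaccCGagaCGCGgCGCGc
ITGB1: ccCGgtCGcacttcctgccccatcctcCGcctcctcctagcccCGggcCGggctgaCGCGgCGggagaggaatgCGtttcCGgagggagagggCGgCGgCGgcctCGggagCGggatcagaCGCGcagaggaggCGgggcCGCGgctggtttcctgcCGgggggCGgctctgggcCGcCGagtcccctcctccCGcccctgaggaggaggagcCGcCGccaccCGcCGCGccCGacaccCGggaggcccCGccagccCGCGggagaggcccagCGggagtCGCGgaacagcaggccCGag
BCAR1: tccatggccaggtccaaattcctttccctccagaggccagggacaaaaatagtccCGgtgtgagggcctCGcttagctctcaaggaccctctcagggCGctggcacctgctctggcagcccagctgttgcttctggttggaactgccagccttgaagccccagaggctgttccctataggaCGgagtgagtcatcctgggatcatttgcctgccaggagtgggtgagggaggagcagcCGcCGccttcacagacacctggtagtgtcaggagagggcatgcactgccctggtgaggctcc
ITGA8: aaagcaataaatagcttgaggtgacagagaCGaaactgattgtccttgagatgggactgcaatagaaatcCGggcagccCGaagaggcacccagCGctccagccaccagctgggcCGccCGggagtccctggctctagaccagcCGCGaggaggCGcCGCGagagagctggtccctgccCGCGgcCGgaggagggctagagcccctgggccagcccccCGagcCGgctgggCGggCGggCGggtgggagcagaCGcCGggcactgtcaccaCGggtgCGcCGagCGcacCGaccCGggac
ITGB6: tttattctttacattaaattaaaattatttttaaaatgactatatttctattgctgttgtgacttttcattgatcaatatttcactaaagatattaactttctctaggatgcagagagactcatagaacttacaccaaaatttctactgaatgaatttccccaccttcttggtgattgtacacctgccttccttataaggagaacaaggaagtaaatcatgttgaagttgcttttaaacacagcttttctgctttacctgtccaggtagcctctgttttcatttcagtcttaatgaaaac

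These promoters hold 32 CpGs in ZYX, 39 in ITGB1, 6 in BCAR1, 27 in ITGA8 and 0 in ITGB6. The ratio of observed to expected CpG was 0.746 in ZYX, 0.848 in ITGB1, 0.217 in BCAR1, 0.752 in ITGA8 and 0 in ITGB6. The nearest peak to ITGA8 was 139937 bp away. As these promoters were picked by CpG content and peak, they show examples and no relation between the 2.

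Over the adhesion genes of the table, the median ratio was 0.799 in the 25 with a peak at the start and 0.478 in the 8 without. The same medians over all coding genes were 0.858 and 0.344. A ratio of at least 0.6 was found in 19 of the 25 marked promoters (76.0%) and in 4 of the 8 unmarked ones, against 88.7% and 31.1% over all genes. The 6 marked promoters below that ratio were ITGA10 (0.114), ITGB7 (0.209), BCAR1, ITGA5 (0.449), TNS3 (0.502) and ITGA6 (0.522). Marked here means a peak within 1000 bp of the start, which need not overlap the bases scored. The peaks of ITGB7 and TNS3 lay 489 bp and 126 bp downstream of the start, outside these bases. Unmarked promoters above it were those of ITGA8, ITGA11 (0.748), TNS1 (0.688) and ITGB5 (0.601). G and C made up a median of 72.3% of marked and 57.3% of unmarked adhesion promoters, against 66.3% and 55.3% over all genes.

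**Figure D3:**
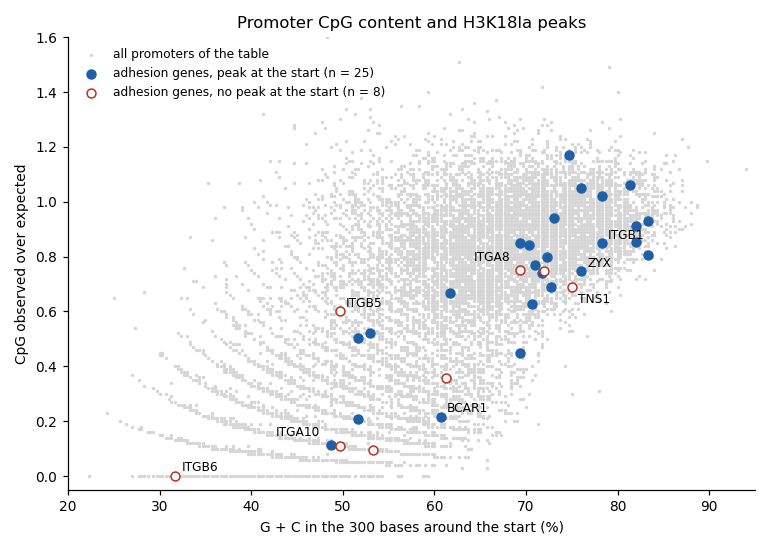
Observed over expected CpG against G + C content (%) of the 300 bases around each annotated start. Filled points are the 25 adhesion genes with a peak within 1000 bp of the start and open points the 8 without. Grey points are all promoters of the table up to a ratio of 1.6. Promoters with a peak run from ITGA10 (0.114) to ACTN4 (1.17) and those without from ITGB6 (0) to ITGA8 (0.752).

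Short motifs were searched on both strands of the 33 promoters, and matches are descriptions only. A match to the CArG box (CCWWWWWWGG, where W is A or T) can hold a whole CCAAT or TATA box. No other motif spelling contains another. FLNA had a CCAAT and a CArG match, and whether these overlap was not examined. The SP1 GC box GGGCGG was found in 21 of 33 adhesion promoters and in 58.5% of all promoters, and in 17 of the 25 marked ones against 74.2% of all marked ones. The AP-1 motif TGANTCA was found in ACTN4, BCAR1 and ITGA5, 3 of 33, against 5.75% of all promoters. The TEAD motif GGAATG was found in FLNC, ITGA10, ITGA5, ITGB1 and VCL, 5 of 33, against 11.7%. The CCAAT box, spelled by its name, was found in 6 of 33 against 36.4%, and the TATA box TATAAA in ITGA6 alone against 9.63%. The E-box CACGTG was found in ILK and ITGA6 against 8.88%, the ETS motif CCGGAAG in ITGB5 against 14.2%, and the SRF CArG box in FLNA and ITGB6 against 1.21%.

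Among the laminin-binding alpha subunits, all 3 genes had an end peak. ITGA3 (NCBI gene 3675, chromosome 17, 50056110 to 50090481) encodes the alpha-3 subunit that pairs with ITGB1, and its peak of 23895 bp was the widest at any gene end of the list, which was part of how these genes were chosen. The peak (50043649 to 50067543) had 7.80-fold enrichment and a -log10 q of 38.5. It began 12461 bp outside the gene's end of lower coordinate and reached 11434 bp into it, which is 33.3% of the gene. An end of the long noncoding gene PICART1 lies in it too. A further peak of 14.8-fold and 4277 bp lay 25330 bp below the gene, at no coding gene's end, and 1 of 5.32-fold lay 4157 bp above it at PDK2.

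ITGA6, whose product pairs with ITGB1 or ITGB4 and anchors epithelia to laminin, had 6.63-fold over 2728 bp at its start (chromosome 2, 172427097 to 172429824). This was followed inside the gene by 4 weaker peaks of 3.01-fold to 4.32-fold, of up to 5201 bp. ITGA7, best known from muscle, had 5.30-fold over 2258 bp, in a peak also at BLOC1S1.

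The RGD-binding alpha subunits split evenly. ITGA5, the fibronectin receptor subunit (NCBI gene 3678, chromosome 12), had 8.28-fold over 3820 bp (54417850 to 54421669), reaching 2403 bp before and 1416 bp after the start. ITGAV, which pairs with 5 different beta subunits, had 7.46-fold over 1785 bp at its start (chromosome 2, 186589356 to 186591140). Upstream of ITGAV, 4 more peaks of 3.92-fold to 5.80-fold lay 13980 to 42807 bp outside the gene, at no coding gene's end. ITGA2B, the platelet subunit, had a peak of 3.79-fold inside the gene only. ITGA8 had none, and its nearest peak was 139937 bp away.

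The collagen-binding subunits had weak peaks at their starts. ITGA1 had 3.76-fold (1243 bp, also at PELO), ITGA2 3.98-fold (1883 bp) and ITGA10 4.06-fold (647 bp), all below the median of 6.62 for the 34 genes. Stronger peaks lay inside ITGA1 (5.85-fold, also at an end of the noncoding gene PELO-AS1), ITGA2 (4.155-fold) and ITGA10 (9.21-fold, 1360 bp). The ITGA10 peak was centred 17090 bp after the start and lay 1073 bp from the gene's 3′ end, just outside the window of 1000 bp. ITGA11 had no end peak but 4 inside, of 3.45-fold to 7.41-fold. ITGA4 and ITGA9 formed a separate class, not that of the collagen-binding subunits. ITGA4 had 5.06-fold over 1444 bp at its start. ITGA9 had none in its 371367 bp, and the nearest was the peak at CTDSPL, 36705 bp away.

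Among the alpha subunits of leukocytes, ITGAX alone had an end peak, a weak one of 3.20-fold and 799 bp with a -log10 q of 3.10. ITGAD, ITGAE, ITGAL and ITGAM had peaks inside the gene only, of at most 4.40-fold, 6.04-fold, 3.40-fold and 6.24-fold. The ITGAE peak of 6.04-fold lay at the ends of HASPIN and P2RX5. At ITGAL, a peak of 11.6-fold lay 2748 bp beyond the end of higher coordinate, the closest to the 1000 bp window of the genes left out by it. Of the genes counted, SRC was nearest to that limit, with its closest peak 652 bp from the end, and the 3′ peak of TLN2 lay 799 bp beyond the gene.

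ITGB1 encodes the partner of 12 alpha subunits. Its peak (NCBI gene 3688, chromosome 10, 32955606 to 32964885) was 9280 bp wide with 8.49-fold and a -log10 q of 25.7. It lay mostly upstream, reaching 6655 bp before and 2624 bp after the start, and a peak of 3.21-fold lay inside the gene. Farther upstream, 4 peaks of 2.94-fold to 7.09-fold lay between 11742 and 45707 bp from the gene, the widest (7368 bp, 6.39-fold) at the divergent noncoding gene ITGB1-DT. ITGB4, the hemidesmosome subunit, had 4.79-fold over 1163 bp.

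The partners of ITGAV were marked in different ways. ITGB3 had 4.18-fold at an end (976 bp) and 4 peaks inside, and ITGB8 had 3.998-fold (1505 bp) at its start. ITGB5, the vitronectin receptor subunit, had no end peak but 6 peaks inside, with a summed 14894 bp. The strongest of these (11.3-fold, 2220 bp, chromosome 3, 124885731 to 124887950) lay 14578 bp after the start. ITGB6, an epithelial subunit, had no peak in the gene. Upstream of it lay 7 peaks of 2.66-fold to 7.03-fold within 40623 bp, the first of which (7011 bp, 7.03-fold) began 3796 bp from the gene.

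The leukocyte beta subunits differed from each other. ITGB2 had 8.22-fold over 3913 bp at its end of higher coordinate (chromosome 21, 44926815 to 44930727), where the noncoding gene ITGB2-AS1 also has an end. ITGB7 had the weakest end peak of the 34 genes, of 2.89-fold and 684 bp with a -log10 q of 2.63.

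Of the 24 known alpha-beta pairs, 14 had an end peak at both genes, 10 at 1 of them and 0 at neither. For ITGB1 this was 9 of 12 pairs, those with ITGA8, ITGA9 and ITGA11 being the exceptions. For ITGAV it was 3 of 5 pairs, with ITGB1, ITGB3 and ITGB8. With peaks inside the gene counted too, both genes were marked in 21 of 24 pairs, all but those of ITGA8 and ITGA9 with ITGB1 and of ITGAV with ITGB6. The pairs share subunits and are not independent: ITGB1 is in 12 of them and ITGAV in 5, both with an end peak. What the counts would be without pairing was not tested, and nothing is read from them.

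The talins and kindlins all had an end peak. TLN1, the widely expressed talin, had 6.42-fold over 1539 bp at its start, in a peak also at CREB3. TLN2 had narrow peaks at both ends, 3.62-fold over 342 bp at the start and 4.53-fold over 419 bp beyond the 3′ end, in a gene of 454082 bp. FERMT2 had 8.40-fold over 1363 bp and FERMT1, the epithelial kindlin, 4.08-fold over 1316 bp.

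The complex of ILK, PINCH and parvin links beta tails to actin. ILK had 3 peaks in or at its 7097 bp, with 5.42-fold at the start (also at RRP8), 6.37-fold inside (also at TAF10) and 7.34-fold at the 3′ end (also at TAF10 and TPP1). LIMS1, which encodes PINCH1, had 6.60-fold over 2034 bp at its start and 9 peaks inside, the largest number of body peaks among the 46 genes. These ran from 2.55-fold to 7.17-fold, and the strongest was 4561 bp wide and lay 60465 bp after the start. PARVA had 8.19-fold over 1635 bp, beginning 547 bp inside its end of lower coordinate.

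The 4 signalling genes all had an end peak of over 7-fold. SRC, the founding member of its kinase family, had 9.39-fold over 1726 bp (chromosome 20, 37345351 to 37347076). PTK2, which encodes focal adhesion kinase, had 9.20-fold over 3677 bp with a -log10 q of 56.3, and 6 weak peaks inside of at most 3.49-fold. The control background can be worked out from a peak's fold and p. Its median over the peaks of the 5 Mb bin of PTK2 was 7.07, against 3.50 for the median bin. What part this has in the PTK2 peaks was not tested.

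PXN and BCAR1, the scaffold genes for paxillin and p130Cas, were marked along the gene. PXN had 7.23-fold over 4470 bp at its start, of which 3890 bp lay downstream, and a peak inside of 11290 bp and 9.34-fold (chromosome 12, 120228219 to 120239508). BCAR1 had 7.25-fold over 4697 bp at its start and 2 stronger peaks inside, of 9.90-fold over 3548 bp and 9.44-fold over 6016 bp. Peaks covered 41.1% of BCAR1 and 17664 bp of PXN, whereas the median coverage was 4.35% for the 46 genes and 1.51% for all protein-coding genes.

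**Figure D4:**
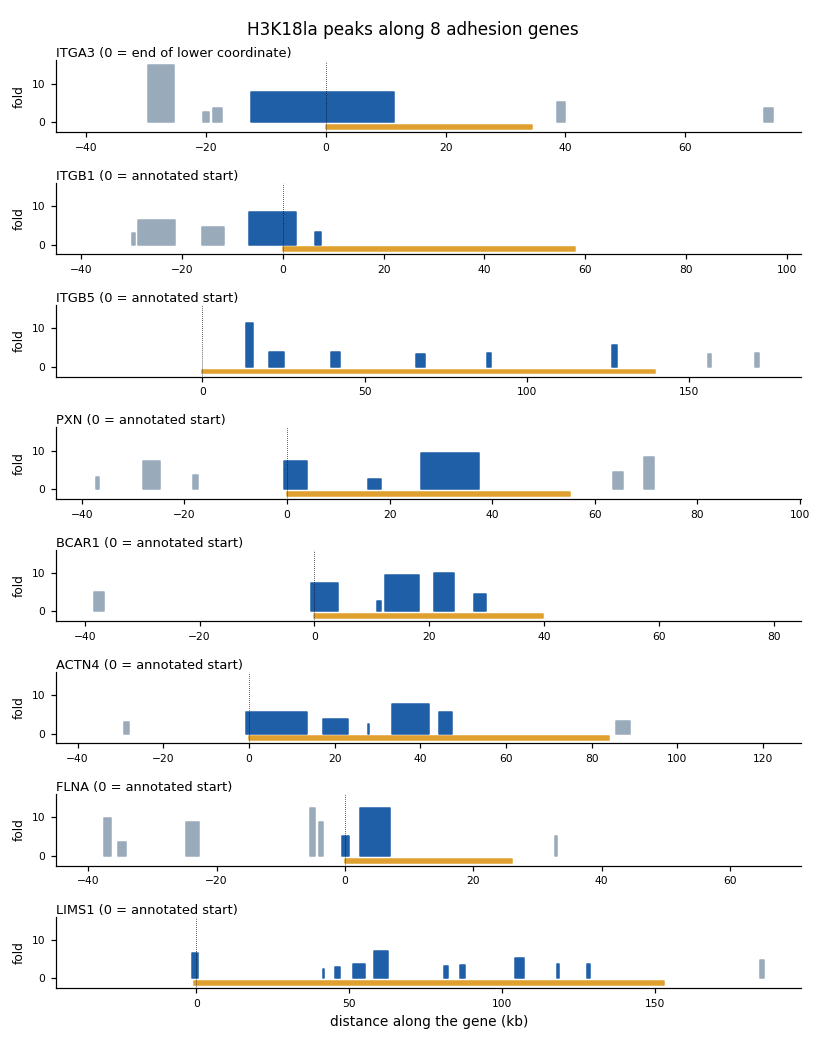
Peaks along 8 adhesion genes, by distance in kb from the annotated start (from the end of lower coordinate for ITGA3). The height of each block is the peak's fold enrichment and its length the peak's width. Blue blocks lie at or in the gene, grey blocks outside it, and the bar below is the gene. The ITGA3 block spans 23895 bp across the gene's end, the ITGB5 start has none, and PXN and BCAR1 carry wide blocks inside the gene.

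Among the actin linkers, 7 of 8 genes had an end peak. Zyxin, a LIM protein of mature adhesions and stress fibres, had the highest fold of the 46 genes. Its peak (NCBI gene 7791, chromosome 7, 143379947 to 143382370) had 17.7-fold over 2424 bp with a -log10 q of 76.9, and an end of FAM131B lies in it too. ACTN1 followed with 13.1-fold over 3913 bp and a -log10 q of 133.4 (chromosome 14, 68976822 to 68980734), and had 5 peaks inside of at most 4.31-fold. FLNC had 9.35-fold over 6972 bp, centred on the start (3669 bp before, 3302 bp after).

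ACTN4, the other non-muscle alpha-actinin gene, carried 5.72-fold over 14349 bp at its start (chromosome 19, 38646933 to 38661281). Nearly all of it, 13632 bp, lay downstream of the start. With 4 more peaks inside, of up to 8701 bp and 7.67-fold, peaks covered 31590 bp of ACTN4, the most among the 46 genes, or 37.6% of the gene. FLNA had 5.15-fold over 1210 bp at the start and 12.4-fold over 4625 bp inside (chromosome X, 154367665 to 154372289), 4657 bp after it. VCL had 5.77-fold over 2847 bp and TNS3 6.74-fold over 1202 bp. The nearest peak to TNS1 was 182718 bp away.

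Control background was high at some of these genes. Its median over the peaks of a 5 Mb bin was at least 7 for 4 genes, with 10.1 at ACTN4, 8.74 at ACTN1, 7.38 at ITGA3 and 7.07 at PTK2, against a median of 3.75 over the 46 genes. At equal fold a higher background gives a higher -log10 q, and its part in the widths and -log10 q of these peaks was not tested. ZYX (3.25), ITGB1 (2.90), FLNC (3.96), PXN (3.91) and BCAR1 (4.36) lay in bins near the median. A bin median can differ from the background at a single peak. The start peaks of these genes had 3.76 (ZYX), 4.05 (ITGB1), 5.08 (FLNC), 4.34 (PXN) and 7.71 (BCAR1). The strongest inside peaks of BCAR1 had 6.51 and 6.39, against a median of 3.83 over all peaks. The part of background in the BCAR1 peaks was not tested either.

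**Figure D5:**
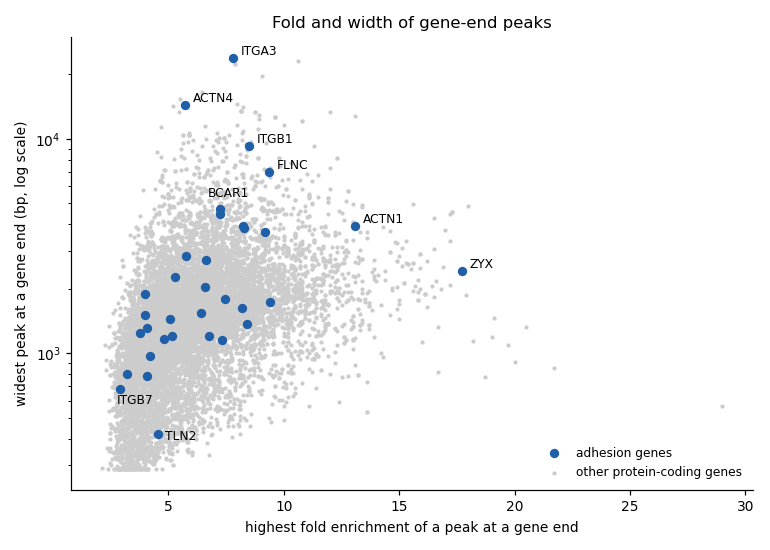
Width of the widest end peak (bp, log scale) against the highest fold of an end peak, for the 34 adhesion genes with an end peak and all other protein-coding genes with one. ITGA3 (23895 bp) and ACTN4 (14349 bp) stand out by width, ZYX (17.7-fold) by fold.

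In 34 of the 46 genes 89 peaks lay inside the gene, outside the 1000 bp windows of both ends. In 10 genes with an end peak, an inside peak had the higher fold: ITGA1, ITGA2, ITGA10, ITGB3, LIMS1, PXN, BCAR1, VCL, ACTN4 and FLNA. These counts were not computed over all protein-coding genes, which are shorter, and nothing is read from them. The median number of peaks overlapping the body was 2 for the 46 genes and 1 for all protein-coding genes. Among genes of 50000 bp or more it was 3 and 1. Peaks in the body but at neither end were found in 8 genes (17.4%), against 7.60% of all protein-coding genes. This share was not computed among long genes alone. PARVB is counted here, although its only peak covered its annotated start. The start peaks of the 25 oriented genes reached farther downstream than upstream in 13 cases (52.0%), against 59.9% of all marked starts.

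A wider list of 88 adhesion genes had an end peak in 73 cases (83.0%, interval 73.4 to 90.1), against 59.1% of all protein-coding genes. Among genes of 50000 bp or more this was 33 of 42 (78.6%, interval 63.2 to 89.7) against 64.0%. By role this was 15 of 16 actin regulators, 16 of 18 GTPases and their regulators, 14 of 15 kinases and phosphatases, 11 of 11 membrane partners and 17 of 28 adaptors. The highest fold was that of CDC42 (20.01-fold, 913 bp), the GTPase of filopodia, followed by the cofilin kinase gene LIMK1 (13.9-fold) and the GTPase-activating protein gene ARHGAP35 (13.7-fold, also at LOC124904791). The widest were those of the tetraspanin gene CD151 (10129 bp, 7.42-fold, also at PNPLA2 and CRACR2B), SHC1 (6844 bp, 9.41-fold, also at CKS1B) and the tensin gene TNS2 (5840 bp, 12.04-fold). CD151 encodes the tetraspanin partner of the laminin-binding integrins. No listed peak touched the body or ends of PARVG, FERMT3, TNS4, EFS and KANK1. PARVG and FERMT3 are the blood-cell forms of parvin and kindlin. Their paralogues PARVA, FERMT1 and FERMT2 had end peaks and PARVB 1 at its start, as did TNS2 and TNS3 among the tensins. Of the 7 leukocyte integrins, however, 3 had an end peak, with 8.22-fold at ITGB2, and the other 4 had peaks inside the gene only. No rule for blood-cell genes is read from PARVG and FERMT3.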

How the data were processed

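Anti-H3K18la chromatin of H1299 cells was sequenced as 1 library, with 1 input library whose data were not used here. Per the submitters' processing notes, reads were prepared with bcl2fastq 2.17, cutadapt 1.18 and Trimmomatic 0.38 and aligned to hg38 with Bowtie2 2.3.4.1. Picard, MACS2 (2.1.2 and 2.1.0 are both listed) and ChIPseeker are named too, and caller settings are not given in the sources used here. The deposited values of each peak are a fold enrichment (a ratio), a -log10 p and -log10 q (the largest q was 0.0472) and a score, which equalled 10 times -log10 q rounded down in 99.98% of peaks.

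Peaks were set against RefSeq genes (GRCh38.p14) with Python 3.11.15, numpy, pandas and scipy, an overlap of 1 bp or more counting. Table entries of alternate or unlocalised sequence were left out. Control background was estimated per peak by inverting a Poisson p at the deposited fold, and is approximate, since both are averages over a broad peak. Overlap, start positions and this solution were tested on simulated data. The 46 genes, the lists and the alternatives were chosen with earlier results of these data known. All 46 genes are named, and of the wider list the 3 of highest fold, the 3 widest and those without a peak. The known alpha-beta pairs and the promoters shown were added after the values were seen. How reads of near-identical copies were placed was not examined. Some marker and neighbouring genes are not reported here.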

Additional observations from a re-analysis of the deposited data

How the results depend on the processing

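Of 52 values recomputed under other settings, 50 stayed within 1.5 times the count reported or within the binomial interval of the median. The exceptions were counts of genes with an end peak of 5000 bp or more, which was 4 as reported and 301 over all genes. For the 46 genes it was 2 when the midpoint of the peak had to lie in the window (ITGA3 and FLNC). The midpoint rule left 84 of all 19866 genes. With at least 50% of the peak required in the window, it was 0 for the 46 genes and 0 for all. The value of 0 follows from the window, which is too short to hold that share of so wide a peak.

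The number of the 46 genes with an end peak was 34, and ran from 25 (at least 50% of the peak in the window; 54.3% against 53.9% of all genes) to 35 (a window of 3000 bp, by which ITGAL was added; 76.1% against 62.4%). With the midpoint rule ACTN4, BCAR1, ITGA6, ITGB1, PARVA, PXN and SRC were lost, and 27 remained (58.7% against 54.8%). With a peak required over the end itself 28 remained (60.9% against 47.9%), and with peaks at or above the median fold 26 (56.5% against 45%). At a -log10 q of at least 5 ITGAX, ITGB7 and ITGB8 were lost, and 31 remained (67.4% against 52.4%). Without peaks that also lie at another coding gene's end, ILK, ITGA1, ITGA7, TLN1 and ZYX were lost, and 29 remained (63.0% against 41.0%). The data are 1 library of unknown depth, so weak peaks such as those of ITGAX and ITGB7 carry the least weight.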
